A study of Mus musculus with 12 samples.

Results

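The genes described here are 35 liver-secreted factors of blood coagulation (19 genes) and of the complement system (16 genes), listed by name, and read in tissues of Sirt6 knockout mice. A probe was found for 30 of them, 17 of coagulation and 13 of complement, among 14654 genes named on the array. F9, Klkb1, C3, C8g and Masp2 were not analysed here. On each array a Sirt6 null tissue, labelled with Cy5, was set against the matching wild type tissue, labelled with Cy3. The 12 arrays made 6 groups of 2: knockout liver, spleen, skin and thymus at 29 days of age, with replicates 1 and 2, and knockout liver (replicates 2, a number given by order of deposit, and 11) and spleen (replicates 6 and 11) at 21 days. The wild type channel held same-age tissue at 29 days and a pool of 3 wild type littermates at 21 days. Sirt6 encodes a chromatin-bound deacylase, and the labels give the knockout as SIRT6null or S6-ko, without strain, sex or the makeup of the 29-day wild type RNA. Nothing in them says that the arrays of a group held separate animals, so the spread behind each p-value may be technical in part. The Y-linked gene Eif2s3y lay between -0.13 and 0.37 on replicate 1 of the 29-day tissues and between 3.35 and 5.08 on replicate 2. On the 21-day arrays it lay between -8.0 and -2.87. Whether the sex of the animals differed between channels or arrays, and its part in the ratios, was not tested.

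All values are log2 ratios read as knockout over wild type, centred on the median of each array, so a positive value means more RNA in the knockout channel. The direction is taken from the dyes in the labels, and no array had the dyes exchanged. That the deposited ratio is Cy5 over Cy3 is assumed, since the sources used here do not state it. The table held ratios and no signal per channel, so a tissue could not be checked against its defining markers. The deposited array medians lay between -0.22 and 0.21. Before centring, the 29-day arrays had SDs of 0.31 to 0.66 and the 21-day arrays wider ones, 0.72 to 1.14. Replicate 6 of 21-day spleen lacked 10155 of 38784 values and stood apart in this. Sirt6 averaged below 0 in 5 of 6 groups and passed the test in none (lowest limma adjusted p = 0.103). The exception was 29-day spleen, at 0.17, the reverse of what its knockout label would give. Whether the Sirt6 probes lie in the deleted stretch is unknown here, so they do not check the labels. A group mean was called where its limma adjusted p was under 0.05 over all features tested, with n = 2 arrays a group.

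Hepatocytes make most clotting factors and complement proteins of the blood. In coagulation a cascade of proteases ends in thrombin, which cuts fibrinogen into the fibrin of the clot, while antithrombin, protein C and plasmin limit or dissolve it. Complement is a cascade of proteases started by antibodies, by lectins that bind microbial sugars or by slow self-activation, and it ends in a pore in the target membrane. In the acute phase response, interleukin-6 raises fibrinogen and several complement genes in liver through STAT3 and C/EBP factors.

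The 3 genes of fibrinogen lie side by side, within 42.1 kb of mouse chromosome 3. Their promoters are shown because the 3 genes were all high on 1 liver array and all below 0 in spleen, and that of F7 because it was the only member called. The sequences are RefSeq's, assembly GRCm38.p6, 300 bases around the start site, at chr3:83025903-83026202 (plus strand) for Fga, chr3:83049814-83050113 (minus strand) for Fgb, chr3:83007474-83007773 (plus strand) for Fgg and chr8:13025784-13026083 (plus strand) for F7. Capitals mark matches, on either strand, to CTGGGAA, the core of a STAT3-type element of acute phase genes, to TTGCNNAA, a C/EBP-type site, and to GTTAAT, part of the site of the liver factor HNF1. No marked matches overlap.
Fga: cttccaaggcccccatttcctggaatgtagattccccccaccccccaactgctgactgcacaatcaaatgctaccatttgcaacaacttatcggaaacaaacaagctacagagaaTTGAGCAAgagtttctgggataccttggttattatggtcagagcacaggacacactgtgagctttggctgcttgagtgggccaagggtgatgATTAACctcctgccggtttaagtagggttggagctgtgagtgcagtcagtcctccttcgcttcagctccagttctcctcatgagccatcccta
Fgb: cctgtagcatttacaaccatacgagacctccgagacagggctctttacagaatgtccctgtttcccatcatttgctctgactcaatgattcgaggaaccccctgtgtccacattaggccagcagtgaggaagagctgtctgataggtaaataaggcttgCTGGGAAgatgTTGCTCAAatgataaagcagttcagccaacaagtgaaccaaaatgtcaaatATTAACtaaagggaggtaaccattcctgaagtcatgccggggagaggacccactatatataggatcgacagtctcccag
Fgg: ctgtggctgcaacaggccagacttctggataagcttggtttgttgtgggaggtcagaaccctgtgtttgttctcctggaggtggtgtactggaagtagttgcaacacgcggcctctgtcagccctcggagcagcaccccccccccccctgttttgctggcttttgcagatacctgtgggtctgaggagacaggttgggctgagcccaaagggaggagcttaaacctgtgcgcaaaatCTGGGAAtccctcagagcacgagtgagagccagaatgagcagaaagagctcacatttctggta
F7: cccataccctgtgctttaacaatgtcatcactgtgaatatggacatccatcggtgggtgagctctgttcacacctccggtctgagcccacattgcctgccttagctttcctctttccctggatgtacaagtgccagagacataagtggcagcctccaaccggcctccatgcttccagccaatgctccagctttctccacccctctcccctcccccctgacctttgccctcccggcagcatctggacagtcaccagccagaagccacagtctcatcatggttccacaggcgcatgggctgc
Fgb held all 3 motifs, Fga held TTGCNNAA and GTTAAT, Fgg held CTGGGAA alone, and no motif was found in the F7 window. Of 32851 mouse promoters of this length, 11.1% held CTGGGAA, 10.8% TTGCNNAA and 7.1% GTTAAT. Among the 22 measured members with a promoter entry, 3 held CTGGGAA (Fgb, Fgg, C6), 5 held TTGCNNAA (Fga, Fgb, C9, F11, Serpinc1) and 8 held GTTAAT (Fga, Fgb, F2, F13b, Hc, C4bp, C8a, C8b). These counts are of genes, each counted if any of its promoter entries matched, while the percentages are of promoters. A match is a description of the sequence and not a binding site.

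In 29-day liver the coagulation genes stood high on 1 of the 2 arrays. On replicate 1 all 17 lay above 0, between 0.01 and 2.30, with a median of 0.59. On replicate 2 they lay between -0.94 and 0.15, with a median of -0.21, 7 above 0 and 9 below. Replicate 1 was above replicate 2 for 16 of 17 coagulation genes, where 51.2% of all features were. F13b, the carrier subunit of the fibrin crosslinking factor, was the exception, at 0.01 on both arrays. The test called 0 of the 17, with 0.104% of all 30812 features called, and 2 of the 17 (Fgb and Kng1) had an unadjusted p under 0.05, as 2.16% of all features did. The median of the group means was 0.21, against 0.01 over all features. It was 0.43 with arrays scaled to the same spread, which enlarges all ratios of these arrays.

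Fibrinogen and kininogen had the highest ratios of replicate 1. Fga, the alpha chain, had log2 ratios of 2.30 and -0.43 on replicates 1 and 2. Fgg, the gamma chain, had 2.20 and -0.40, and Fgb, the beta chain, had 1.72 and 0.11. The mean was 0.93 (SE 0.49) for Fga, 0.91 (SE 0.33) for Fgb and 0.90 (SE 0.48) for Fgg, each with limma adjusted p = 1.00. The arrays thus gave opposite directions for the alpha and gamma chains. Both probes of Fga and both of Fgg showed the split, with 2.21 and 2.38 for Fga and 2.28 and 2.12 for Fgg on replicate 1. Kng1, kininogen, the cofactor of contact activation and source of bradykinin, was at 1.83 and 0.13 (mean 0.98, SE 0.38, adjusted p = 1.00). With arrays scaled to the same spread the means were 1.98 for Fga, 1.82 for Fgb, 1.91 for Fgg and 1.96 for Kng1, with no call. Scaling enlarges every ratio on the 29-day liver arrays, whose SDs were narrow (0.31 and 0.36), and keeps its sign on each array. C9 went from -1.32 to -2.30 in the same way. The higher means are thus no result about these 4 genes. The paralog Kng2 can share transcript sequence with Kng1, so the Kng1 value is uncertain.

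The proteases of the cascade had smaller ratios in 29-day liver. F7, the factor that starts clotting with tissue factor, was at 0.69 and 0.13, and F2, prothrombin, at 0.43 and 0.13. F5, the cofactor of factor X, was at 0.49 and -0.27, and F10 itself at 0.59 and -0.50. F11 and F12, of the contact pathway, were at 0.41 and -0.94 and at 0.43 and -0.28. F7 and F2 were above 0 on both arrays and the other 4 were split between them. Among the inhibitors, Serpinc1, antithrombin, was at 0.23 and 0.15, Serpind1, heparin cofactor II, at 0.41 and 0.00, Proc, protein C, at 0.07 and 0.00, and Pros1, the cofactor protein S, at 0.81 and -0.21. For fibrin breakdown, Plg, plasminogen, was at 0.79 and -0.24 and Serpinf2, the plasmin inhibitor, at 0.62 and -0.25. The inhibitors and the fibrinolytic pair therefore had the same order of the arrays as fibrinogen, with smaller ratios.

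**Figure D1:**
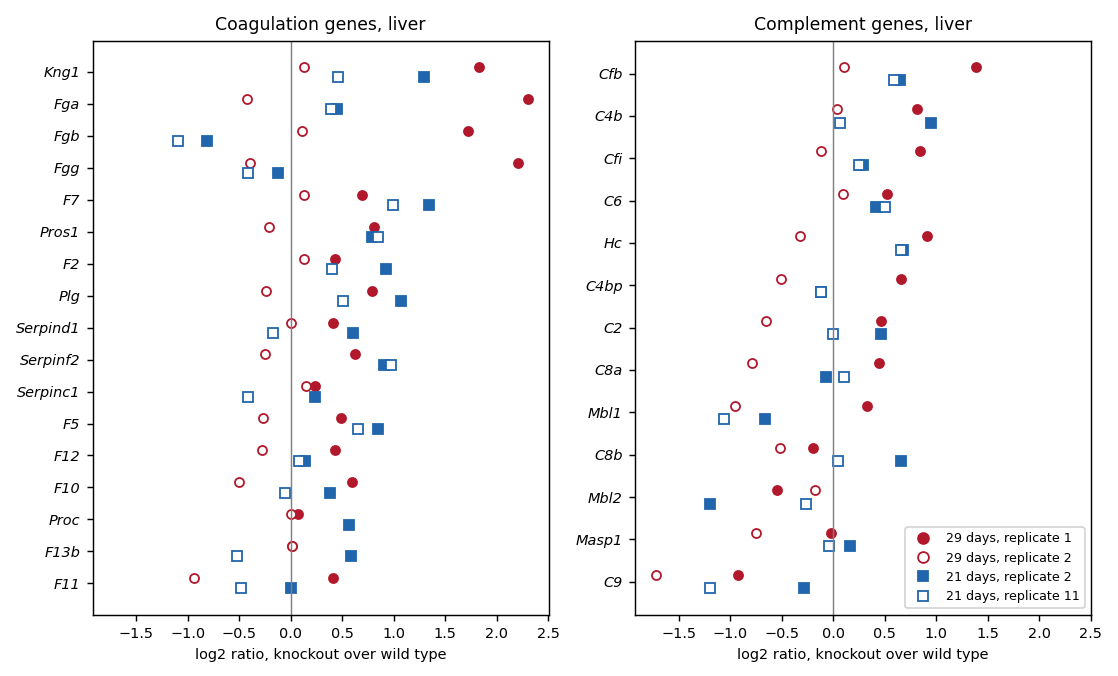
Log2 ratios (knockout over wild type, x axis) of each coagulation gene (left) and complement gene (right) on the 4 liver arrays, ordered by the 29-day mean. Circles are 29-day arrays (filled replicate 1, open replicate 2) and squares 21-day arrays (filled replicate 2, open replicate 11); the filled circles of Fga and Fgg stand at 2.30 and 2.20 and their open circles at -0.43 and -0.40.

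Complement genes showed the same order of the 29-day liver arrays. Their median was 0.46 on replicate 1 and -0.51 on replicate 2. Of the 13, 12 were higher on replicate 1, where 51.2% of all features were. None was called, with 0.104% of all features called, and 1 (Cfb) had an unadjusted p under 0.05, as 2.16% of all features did. Cfb, factor B, the protease of the alternative pathway convertase, was at 1.39 and 0.10 (mean 0.75, SE 0.33, adjusted p = 1.00). Hc, complement C5, was at 0.91 and -0.32, C4b at 0.81 and 0.04, and Cfi, the protease that inactivates C3b, at 0.84 and -0.12. C4bp, which assists Cfi, was at 0.66 and -0.51, and C2, the protease of the classical convertase, at 0.46 and -0.65. These 6 genes ran from 0.46 to 1.39 on replicate 1 and from -0.65 to 0.10 on replicate 2. Over all 13 genes the ranges overlapped, from -0.92 to 1.39 on replicate 1 and from -1.72 to 0.10 on replicate 2. A C4b probe had the reverse order, at -0.10 and 0.37. C4b has the near-identical copy C4a, whose transcripts its probes may read.

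The lectin pathway genes, C8a, C8b and C9 were low or split, while C6, of the same pore as C8 and C9, was above 0 on both arrays. C9, which forms the ring of the pore, was at -0.92 and -1.72 (mean -1.32, SE 0.82, adjusted p = 1.00) and was the lowest member. The SE comes from the joint fit of all 6 groups, and C9 was at -2.01 and 2.81 in 21-day spleen. With the 29-day arrays alone C9 had a limma adjusted p of 0.135 and was not called. With quantile normalization its adjusted p was below the threshold and C9 alone was called. C8b was at -0.20 and -0.52, C8a at 0.44 and -0.79 and C6 at 0.52 and 0.09. Mbl2, a mannose-binding lectin, was at -0.55 and -0.18 and was the only complement gene that was lower on replicate 1 than on replicate 2. Mbl1 was at 0.33 and -0.95 and Masp1, the protease bound to these lectins, at -0.02 and -0.75. Below 0 on both arrays were C8b, C9, Masp1 and Mbl2, 4 of 13, with 22.9% of all features there.

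Other lists differed between the 2 arrays of 29-day liver too. The 16 measured acute phase genes had a median of 2.46 on replicate 1, all above 0, and of 0.06 on replicate 2, with 8 above 0. The 6 measured macrophage and Kupffer cell markers had medians of 1.01 and 0.14, and the 11 hepatocyte markers 0.09 and 0.26. The Y-linked gene Eif2s3y, chosen after its values were seen, was at -0.13 on replicate 1 and 3.35 on replicate 2. The part of any of these in the split of the coagulation and complement genes was not tested. In tissue RNA, a change in the number of cells of a type and a change in RNA per cell cannot be told apart.

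In 21-day liver F7 rose 2.24-fold and was the only member called in any group. Its log2 ratios were 1.34 and 0.99 on replicates 2 and 11 (mean 1.17, SE 0.20, n = 2, limma adjusted p = 0.0237). In this group 2.54% of all 29093 features were called, 0.447% as higher. The call rested on the joint fit of all tissues: with the 21-day arrays alone its adjusted p was 0.606, and it was 0.194 with the arrays scaled to the same spread, 0.0913 with quantile normalization and 0.0742 with array quality weights. It was also lost without replicate 2 of 21-day liver (adjusted p = 0.133), without either skin array (0.0597 and 0.0595) and without either thymus array (0.058 and 0.0581).

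The other coagulation proteases and regulators of 21-day liver were mostly above 0. F2 was at 0.92 and 0.40 (adjusted p = 0.174), F5 at 0.85 and 0.65 (0.253), Plg at 1.07 and 0.51 (0.141), Serpinf2 at 0.90 and 0.97 (0.241), Pros1 at 0.79 and 0.85 (0.157) and Kng1 at 1.29 and 0.46 (0.241). None of these 6 passed the test. F12 was at 0.14 and 0.08, averages of probes of opposite sign. They read 1.07 and -0.79 on replicate 2 and 0.32 and -0.16 on replicate 11. F10 (0.38 and -0.06), F13b (0.58 and -0.52), Serpinc1 (0.23 and -0.42) and Serpind1 (0.60 and -0.17) were split. F11 was at 0.00 and -0.48, and Proc had a value on replicate 2 alone, 0.56. Of 16 genes with both values, 9 lay above 0 on both arrays as probe averages, F12 among them, where 31.8% of all features did. Below 0 on both arrays lay 3, where 33.7% of all features did. The list medians were 0.59 and 0.24 on replicates 2 and 11, and the median of the means was 0.32, against -0.04 over all features, and 0.15 without centring.

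The 3 fibrinogen chains had different signs in 21-day liver. Fgb had log2 ratios of -0.81 and -1.10 (mean -0.95, SE 0.33, adjusted p = 0.159). Fgg was at -0.12 and -0.42 and Fga at 0.45 and 0.39. Fgb was thus the lowest coagulation gene of the group, and the ranges of Fga and Fgb, of 2 arrays each, did not overlap. Fgb was read by 1 probe. The Fgg probes read -0.19 and -0.06 on replicate 2 and -0.88 and 0.04 on replicate 11. The difference between the chains was not tested. The difference of the Fgb ratio between ages, 29 days minus 21 days, was 1.87 (SE 0.47, unadjusted p = 0.00295, adjusted p = 0.276). For F7 it was -0.76 (SE 0.28, adjusted p = 0.515). No member passed this test of the age difference, in which 0.0138% of 29043 features were called. The ages were also separate sets of arrays, per the labels, and the effects of age and of set cannot be told apart. At an unadjusted p under 0.05 stood 3 of 29 members, Fgb, F7 and C8b, where 8.22% of all features did, a share near that of the members.

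**Figure D2:**
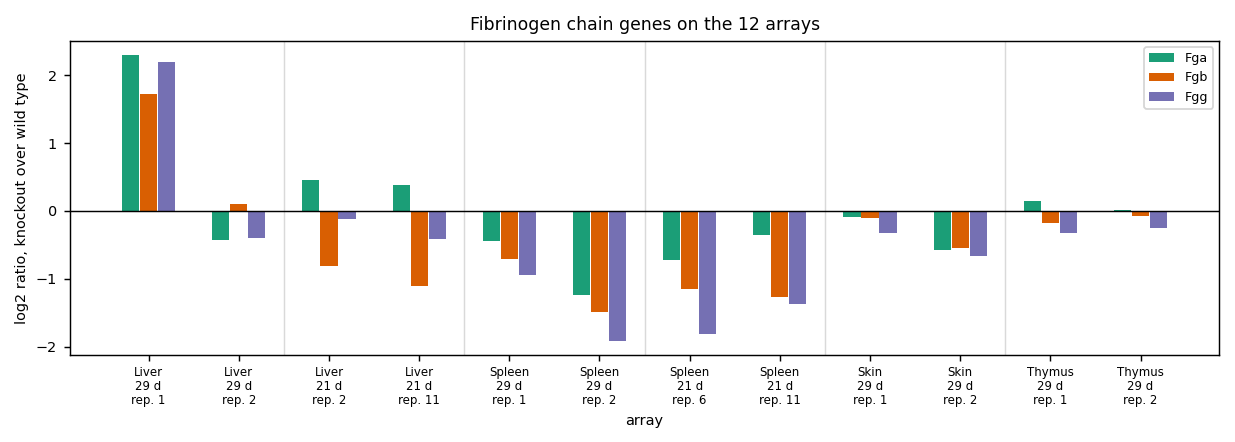
Log2 ratios (knockout over wild type, y axis) of the fibrinogen genes Fga, Fgb and Fgg on each of the 12 arrays, by tissue, age and replicate. The 3 chains stand between 1.72 and 2.30 on replicate 1 of 29-day liver, and all 3 are below 0 on each of the 4 spleen arrays.

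Complement in 21-day liver had a median of 0.23 over 13 genes, with 0.29 and 0.05 on replicates 2 and 11. None of the 13 was called, and 2 (Hc and Mbl2) had an unadjusted p under 0.05, as 20% of all features did. Hc was at 0.68 and 0.66 (mean 0.67, SE 0.26, adjusted p = 0.192), Cfb at 0.65 and 0.59, C6 at 0.41 and 0.50 and Cfi at 0.29 and 0.25. The lectins were on the other side of 0. Mbl2 was at -1.20 and -0.26 (mean -0.73, SE 0.23, adjusted p = 0.136) and Mbl1 at -0.66 and -1.06. C9 was again low, at -0.28 and -1.20, and C4bp was at -0.12 on both arrays. Of the rest, C4b was at 0.95 and 0.07, C8b at 0.66 and 0.05, C2 at 0.46 and 0.00, Masp1 at 0.16 and -0.04 and C8a at -0.07 and 0.10. Hepatocyte markers had medians of 0.82 and -0.20 on the same arrays, acute phase genes 0.56 and 0.28, and macrophage and Kupffer cell markers 0.41 and 0.52. Eif2s3y was at -2.87 and -2.98. Their part in these ratios was not tested.

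As probe averages, F2, F7 and Kng1 were above 0 on each of the 4 liver arrays of both ages, 3 of 16 coagulation genes. So were C4b, C6 and Cfb, 3 of 13 complement genes. Individual probes fell below 0, as low as -0.13 for Kng1 and -0.37 for C4b on replicate 11 of 21-day liver. For C6 a probe was at -0.09 on replicate 2 of 29-day liver. In all, 7.81% of features were above 0 on all 4 and 9.37% below. C9 and Mbl2 were below 0 on all 4, and no coagulation gene was, though a C9 probe was at 0.17 on replicate 2 of 21-day liver. In the comparison of 29-day liver with the mean of skin, spleen and thymus of the same age, Fgg differed by 1.64 (SE 0.56), Fgb by 1.43 (SE 0.39), Fga by 1.30 (SE 0.57), Kng1 by 1.28 (SE 0.44) and Cfb by 0.91 (SE 0.38). These 5 of 30 members had an unadjusted p under 0.05, as 1.89% of all features did, and none passed (adjusted p = 1.00), with 0.0359% of features called. C9 differed by -1.40 (SE 0.95).

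Spleen makes little of these proteins, yet its ratios were among the lowest for several of them. In 29-day spleen, 11 of 17 coagulation genes were below 0 on both arrays, where 17.7% of all features were, and the median was -0.28. Fgg was at -0.94 and -1.91 (mean -1.43, SE 0.48), Fgb at -0.71 and -1.49 (mean -1.10, SE 0.33) and Fga at -0.44 and -1.24. Serpinc1 was at -0.46 and -1.73 (mean -1.10, SE 0.29), Kng1 at -0.51 and -1.05, F5 at -0.16 and -1.24 and F2 at -0.31 and -0.92. All 7 were lower on replicate 2. Of the 17, 0 were called by limma (adjusted p = 1.00) and 4 (Fgb, Fgg, Serpinc1 and F2) had an unadjusted p under 0.05, as 3.3% of all features did. In this group 0% of all features were called. Sirt6 itself was above 0 on both arrays of this group, at 0.20 and 0.14.

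Markers of other cell types moved in the same spleen samples. All 11 measured hepatocyte markers were below 0 on both arrays, with medians of -0.81 and -1.14, and Alb, albumin, was at -1.81 and -2.38. Of 7 platelet and megakaryocyte markers 6 were below 0 on both, with medians of -0.75 and -1.89. Acute phase genes had medians of -0.12 and -1.05, and Eif2s3y was at 0.37 and 3.88. Their part in the coagulation ratios was not tested. Complement genes of 29-day spleen stayed near 0, with medians of 0.02 and -0.10 and a range of group means from -0.57 for Hc, at -0.42 and -0.72, to 0.47 for C6, at 0.90 and 0.04.

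**Figure D3:**
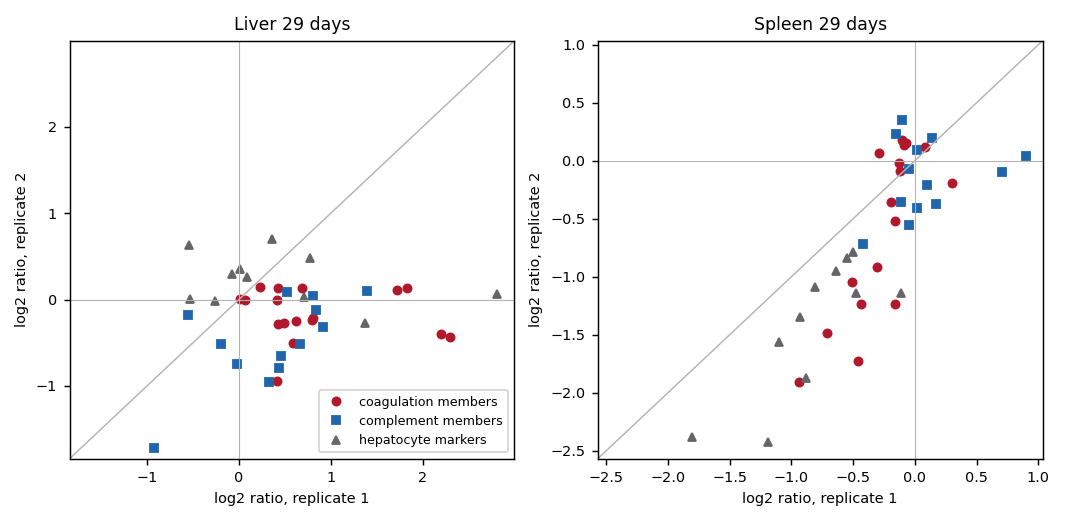
Log2 ratio on replicate 1 (x axis) against replicate 2 (y axis) for coagulation members, complement members and hepatocyte markers in liver (left) and spleen (right) at 29 days, with the line of equal values. In liver 16 of 17 coagulation genes lie below the line, and in spleen all 11 hepatocyte markers are below 0 on both axes.

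In 21-day spleen, 13 coagulation genes and 9 complement genes had both values, and none was called, with 4.13% of 23146 features called. Of these 22, 5 coagulation genes and C6 had an unadjusted p under 0.05, where 27.3% of all features did, so the members' count is no result about them. Fgb was at -1.15 and -1.27 on replicates 6 and 11 (mean -1.21, SE 0.33, adjusted p = 0.0696) and Fgg at -1.82 and -1.37 (mean -1.59, SE 0.48, adjusted p = 0.086). Fga was at -0.72 and -0.36 and Kng1 at -1.19 and -0.69. Fgg was called lower when either 29-day liver array was left out. In the joint fit Alb, at -2.65 and -1.23 (adjusted p = 0.0277), and the apolipoprotein gene Apoa1, at -2.11 and -0.98 (adjusted p = 0.0434), fell in the same samples, and 6 of 7 hepatocyte markers were below 0 on both arrays. The pancreatic enzyme genes, Cela3b, Cel and Ctrb1, fell as well, and Eif2s3y was at -8.0 and -5.04. The calls of Alb, Apoa1 and the pancreatic genes were all lost with scaling, quantile normalization, the 21-day arrays alone and array quality weights, with adjusted p-values of 0.141 to 0.795. Their part in the fibrinogen ratios was not tested.

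Several members disagreed between the 21-day spleen arrays. Mbl1 was at 3.20 and -1.07, C9 at -2.01 and 2.81, Serpinf2 at 1.44 and -0.70 and F11 at 1.34 and -0.51. For C9, Serpinf2 and F11 a probe lacked a value on 1 of the arrays, so these averages are of different probes. The Serpinf2 probe with both values read 1.44 and 0.20, above 0 on each array. That of F11 read 0.65 and -0.51, and that of C9 -2.01 and 5.51. The probes of C9 read 5.51 and 0.10 on replicate 11, a gap of 5.41. Between the arrays of a group, the correlation over members was 0.66 for 30 members in 29-day spleen. In 21-day spleen it was -0.27 for 22 members (Pearson r across genes, which are not independent and share an array). Over all features the correlation was -0.25 in 29-day spleen and 0.12 in 21-day spleen, so the 29-day spleen arrays did not agree in general. Proc was at 0.70 and 0.41 (adjusted p = 0.0937), F12 at 0.80 and 0.27 and C6 at 0.92 and 0.52. F2, F7, Serpinc1, Serpind1, C8a, C8b, Cfi and Mbl2 had no value on replicate 6, and on replicate 11 they ran from -1.78 for Mbl2 to 0.31 for C8a. No member passed the test of 29-day minus 21-day spleen, in which 0.0866% of features were called, and Proc alone had an unadjusted p under 0.05, where 11.1% of all features did.

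In 29-day skin the coagulation ratios were small, with group means from -0.49 for Fgg to 0.23 for F7. None of 30 members was called, with 0.0389% of features called, and 2 complement genes had an unadjusted p under 0.05, as 3.27% of all features did. Both belong to convertases. Cfb was at -0.71 and -0.89 (mean -0.80, SE 0.33, adjusted p = 1.00) and C2 at -0.61 and -0.53 (mean -0.57, SE 0.25, adjusted p = 1.00). Cfb was thus below 0 in skin on both arrays and above 0 in liver on all 4, and also in thymus (0.81 and 0.01). In the test of skin minus 29-day liver 0 of 30 members were called. In that of skin minus 21-day liver 0 of 29 were (lowest limma adjusted p = 0.283, for F7). Cfb was called lower in skin with quantile normalization. Hepatocyte markers had medians of -0.05 and -0.20, acute phase genes 0.14 and -0.31, macrophage and Kupffer cell markers -0.24 and -0.32, and Eif2s3y was at -0.10 and 4.43. Their part in the skin ratios was not tested.

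In 29-day thymus 8 of 13 complement genes were above 0 on both arrays and 0 below, where 38.5% of all features were above and 33.7% below. C4b was at 1.44 and 0.84 (mean 1.14, SE 0.34, unadjusted p = 0.00771, adjusted p = 0.908) and C6 at 0.75 and 0.71 (mean 0.73, SE 0.24, adjusted p = 0.908). The probes of C4b disagreed, by 1.95 at most on replicate 1. C4bp was at 0.45 and 0.33 and Mbl1 at 0.77 and 0.35. Of the coagulation genes, F5 was at 0.51 and 0.47 and Pros1 at 0.61 and 0.29, while Fgg was at -0.32 and -0.25. None of 30 members was called, with 0.013% of features called, and C4b and C6 alone had an unadjusted p under 0.05, as 5.21% of all features did. In the same samples B cell markers had medians of 0.96 and 0.15, thymocyte markers -0.78 and -0.04, macrophage and Kupffer cell markers 0.33 and 0.24 and acute phase genes 0.54 and 0.02. Eif2s3y was at 0.34 and 5.08. Their part in the thymus ratios was not tested. C6, the component that binds C5b when the pore forms, was the one member whose probe average lay above 0 on all 12 arrays, from 0.02 to 0.92. Its 2 probes differed by over 1 on 3 arrays and were not above 0 throughout: the first was at -0.09 and -0.25 on replicate 2 of 29-day liver and spleen, and the second at -0.11 on replicate 2 of skin.

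**Figure D4:**
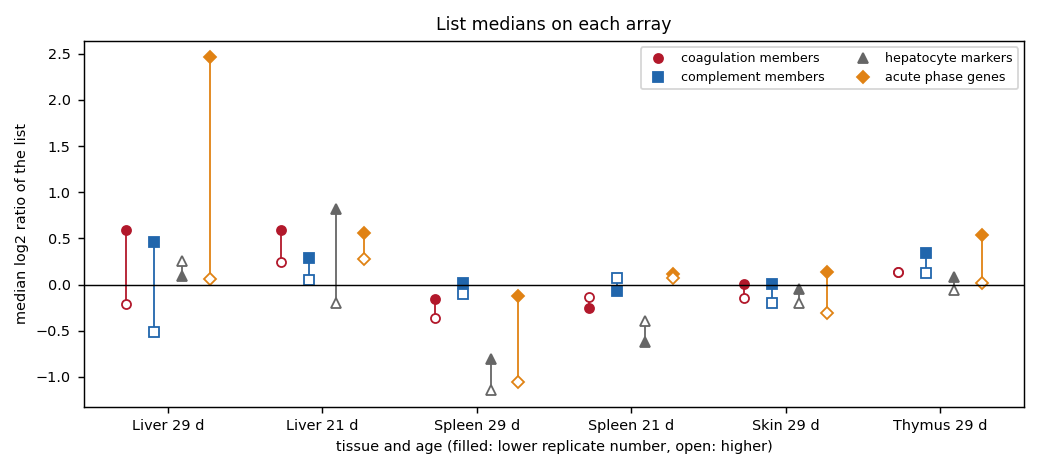
Median log2 ratio (y axis) of the coagulation members, complement members, hepatocyte markers and acute phase genes on each array, by tissue and age, with filled and open points for the lower and higher replicate number and a line between them. In 29-day liver the acute phase median is 2.46 on replicate 1 and 0.06 on replicate 2, and in 29-day spleen the hepatocyte medians are -0.81 and -1.14.

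Other genes of these pathways, such as their receptors, cofactors and regulators, gave few calls. Of 23 listed in coagulation 20 were on the array, and of 27 in complement 17. In 21-day spleen Plaur, the urokinase receptor, rose (1.20 and 0.77, adjusted p = 0.0358), as did Tfpi, the inhibitor of the tissue factor pathway (0.56 and 2.42, adjusted p = 0.0483). Tfpi had 3 probes, and with their median its mean was 0.73 instead of 1.49 and the call was lost (limma adjusted p = 0.089). It was also lost among features with a value on all 12 arrays (0.0545). Both calls were lost with scaling (adjusted p = 0.392 for Plaur and 0.384 for Tfpi), quantile normalization (0.345 and 0.327), the 21-day arrays alone (0.404 for each) and array quality weights (0.786 and 0.712). That of Plaur was also lost without replicate 6 of 21-day spleen or without any 1 array of 29-day liver, skin or thymus (0.0726 to 0.13). That of Tfpi was lost without replicate 11 of 21-day spleen or without any 1 array of liver, skin or thymus (0.0587 to 0.113). These were 2 of 15 coagulation genes tested there, where 1.13% of all features were called higher, none was called lower, and 0 of 13 complement genes were called. In the other 5 groups none was called, of 19 or 20 coagulation genes and 17 complement genes. In 29-day liver Tfpi was at 0.84 and 0.49 and Serping1, the C1 inhibitor, at 1.14 and -0.04, while Ggcx, the vitamin K dependent carboxylase, was at -0.13 and -0.70. Of the complement genes there, C1qb was at 1.35 and 0.16 and Clu, clusterin, at 1.41 and 0.12. In 21-day liver Thbd, thrombomodulin, was at 1.29 and 1.06 (adjusted p = 0.0625), Proz, protein Z, at 0.91 and 0.66 (adjusted p = 0.0754) and Colec10, a collectin of the lectin pathway, at 0.76 and 0.78 (adjusted p = 0.0576). The lowest there were Mcfd2, which helps export factors V and VIII, at -0.88 and -0.72, and Vtn, vitronectin, at -0.54 and -0.92.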

How the data were processed

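The deposited values were log2 ratios of 38784 probes on 12 arrays, made by the authors from aRNA per the labels (TRIzol extraction for the knockout channel). Base 2 is inferred from their range (-8.08 to 9.75). For normalization, centring and background correction, the sources used here give nothing. Arrays were centred on their medians, and probes of a gene were averaged. GEO's platform annotation named 22204 probes, and gene IDs matched RefSeq (GRCm38.p6). A joint model of the 12 arrays with a mean for each group was fitted in limma 3.58.1 (R 4.3.3; lmFit, eBayes), with two-sided tests and Benjamini-Hochberg adjustment over the features tested. A feature was tested where both arrays of the group and of at least 2 further groups had values. Wild type RNA served as 1 control, and the spread among wild type animals does not enter the tests. The number of arrays limits the precision. The fit was tested on simulated data. Alternatives were other centring, scaling, normalization, probe summary, filter and weights, the same age alone, a replicate block and leaving out each array.

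Members and lists were chosen with earlier results of these data known. All members could be named, and of each further list the called genes and at most 2 highest and 2 lowest per group. Python 3.11.15 (pandas 2.3.3, matplotlib 3.10.9) made tables and figures. Motifs were searched in RefSeq promoters.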

Additional observations from a re-analysis of the deposited data

How the results depend on the processing

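The table gives no signal over background, and 2 arrays a group in 1 dye orientation limit the precision. The call of F7, 1 coagulation gene in 21-day liver, became 0 with arrays scaled to the same spread, quantile normalization, the same age alone, array quality weights and features with a value on all 12 arrays, which leaves F7 untested; the cause was not tested for the others. Leaving out 1 array gave 0 to 2 coagulation calls (Serpinf2 joined F7 without either 21-day spleen array) and 0 to 1 complement calls (Mbl2, lower) in 21-day liver. A lone array left in a group is assumed to vary like the other groups. No share of all features called is given here for runs without 1 array or with quantile normalization. The members' calls in those runs thus cannot be set against a background and are no result about them. Leaving out 1 array gave 0 to 3 coagulation and 0 to 2 complement calls in 21-day spleen, 0 to 1 coagulation calls in 29-day spleen (Serpinc1, lower, on replicate 2 alone), and 0 to 1 coagulation and 0 to 2 complement calls for 29-day minus 21-day spleen. Quantile normalization called 1 complement gene lower in 29-day liver (C9) and 1 in 29-day skin (Cfb). With scaling, which enlarges all ratios on the 29-day liver arrays, the coagulation median there was 0.43, against 0.21. Without centring that of 21-day liver was 0.15, against 0.32. The coagulation median of 29-day thymus was 0.12, against 0.18 without centring and 0.15 with scaling or quantile normalization, and the complement median of 21-day liver was 0.23, against 0.06 without centring. Without 1 array the coagulation median ranged from -0.21 to 0.59 in 29-day liver, 0.12 to 0.14 in thymus, 0.24 to 0.58 in 21-day liver and -0.26 to 0.11 in 21-day spleen. The complement median ranged from -0.51 to 0.46 in 29-day liver, -0.20 to 0.01 in skin, 0.13 to 0.34 in thymus, 0.05 to 0.29 in 21-day liver and -0.07 to 0.07 in 21-day spleen. Without replicate 1 of 29-day liver, Fga turned to -0.43 and Fgg to -0.40, and without replicate 2 they were at 2.30 and 2.20. The labels do not say what a 29-day replicate number marks. Deviations of same-numbered arrays correlated between -0.21 and 0.41 over the tissue pairs, and the numbers were not used as pairs in the main fit. Eif2s3y lay between -0.13 and 0.37 on replicate 1 of all 4 tissues and between 3.35 and 5.08 on replicate 2. Same-numbered arrays may thus be related across tissues, which the main fit does not model. With a replicate block, F7 remained called (adjusted p = 0.0495), no other member was called, and Plaur, Tfpi and Apoa1 no longer passed (adjusted p = 0.0546, 0.0734 and 0.0504).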
